A study of Homo sapiens with 4 samples.

Results

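The genes described here encode proteins that decide how long an mRNA lasts in the cytoplasm. They are the BTG and TOB adaptors BTG1, BTG2, BTG3, TOB1 and TOB2, the zinc finger proteins ZFP36, ZFP36L1 and ZFP36L2, the ribonuclease ZC3H12A (regnase-1) and the stabilising protein ELAVL1 (HuR). Members were found by gene symbol: every array probe set that the platform annotation gives to exactly 1 of these 10 genes was taken. That gave 25 probe sets for 8 of the 10 genes. BTG2 was not paired with a probe set there, and the probe set of ZC3H12A is shared with a microRNA gene, so both were not analysed here. Over the whole array, 41097 of 54675 probe sets had a single gene.

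The cells were U937, an established human line from a lymphoma of monocytic character. One group received shikonin, a red naphthoquinone of gromwell roots, at 100 nM, followed by 3 h at 37 °C, and the other received the solvent dimethyl sulfoxide (DMSO), for which no duration is given. Each group had 2 arrays. The labels do not say whether the numbered samples were separate cultures, so the tests measure the spread between these samples, which may be technical. The comparison asks how shikonin-treated cells differ in transcript levels from cells given solvent.

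The 4 arrays had been scaled to 1 common level, with a trimmed mean signal of 500.1 on each, so a change shows how a probe set moved against the others. Median signals were 61.0 and 63.7 after shikonin and 60.5 and 62.2 in DMSO. Of 11 myeloid markers on the array, 10 lay above the 40th percentile on all 4 arrays, among them LYZ, CEBPA, SPI1 and ITGB2. Their summed signal was 36609 to 38467 after shikonin and 39433 to 41349 in DMSO, and 1 of them, PTPRC, was called lower. Of the T cell, B cell, erythroid and epithelial markers, 1 of 5, 2 of 4, 2 of 4 and 1 of 5 lay above that level throughout, and none was called. Those above throughout were CD2 among the T cell markers, CD79A and PAX5 among the B cell markers, HBB and KLF1 among the erythroid markers and KRT8 among the epithelial markers, and CD3D, AHSP and KRT18 were above on 3 arrays. CD3G, CD8A, EPCAM and KRT19 lay below on every array. The summed signals of the T cell, B cell, erythroid and epithelial markers were 128 to 158, 625 to 688, 495 to 526 and 123 to 171 after shikonin, against 141 to 182, 615 to 652, 336 to 455 and 137 to 219 in DMSO. The part of these markers in the results was not tested.

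An mRNA usually begins its decay when its poly(A) tail is shortened by the CCR4-NOT deadenylase. BTG and TOB proteins bind the catalytic subunits CNOT7 and CNOT8 through their shared APRO domain, and TOB proteins also bind the poly(A)-binding protein. ZFP36 proteins recognise AU-rich elements in 3' UTRs with a pair of CCCH zinc fingers and bring CCR4-NOT to cytokine and growth factor mRNAs, whereas ELAVL1 binds similar elements and protects the transcript. In monocytic cells this balance is known for limiting the output of TNF and other inflammatory mRNAs, and several of these regulators are themselves immediate early genes with short-lived transcripts.

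After shikonin, BTG1 and ZFP36L2 were lower than in DMSO, on every probe set of these genes that was bright enough to test. The TOB1, TOB2, ZFP36 and ELAVL1 signals did not pass the test, those of ELAVL1 with changes of either sign. BTG3 and ZFP36L1 were too dim to be measured. In all, 15 of the 25 probe sets, from 6 genes, exceeded the filter that removed the dimmest 40% of probe sets (mean signal below 34.9). A probe set or gene was called where limma's adjusted p, over all probe sets tested, was under 0.05. Of the 15, 5 were called lower, where 5.27% of the 32746 probe sets tested were, and 0 were called higher, where 3.93% were. With each gene represented by its brightest probe set, 2 of 6 genes were called lower (6.68% of 13550 genes tested) and 0 were called higher (5% of them). Without DMSO 1, DMSO 2 or shikonin 1, 1 of the 6 genes, BTG1, was called lower, and with a single variance prior in place of limma's trend of variance on signal, 0 were. Without adjustment, 4 of the 6 genes had a p under 0.05 in the lower direction (14.7% of all genes tested) and 0 in the higher (13.3%). Under quantile normalization these counts were 2 and 0 (3711 of all 13550 genes in either direction).

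On 11 of the 15 probe sets both shikonin arrays lay below both DMSO arrays, which held for 26.1% of all probe sets tested, and on 1 both lay above (27.1% of all). The other 3 overlapped. Probe sets of 1 gene may read the same transcripts, so these counts are not counts of independent events. The median log2 change over the 6 genes was -0.24, against 0.00387 over all genes tested. Calls were rare among dim genes: with the tested genes split by brightness into 4 equal classes, 0.384%, 5.58%, 11.7% and 9.03% were called lower from the dimmest to the brightest class, and the brightest had a median standard error of 0.066. BTG1 (85.9th percentile of brightness), ZFP36L2 (98.8th) and ELAVL1 (95.5th) were in the brightest class, and TOB2 (63.0), TOB1 (58.5) and ZFP36 (43.7) were dimmer.

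**Figure D1:**
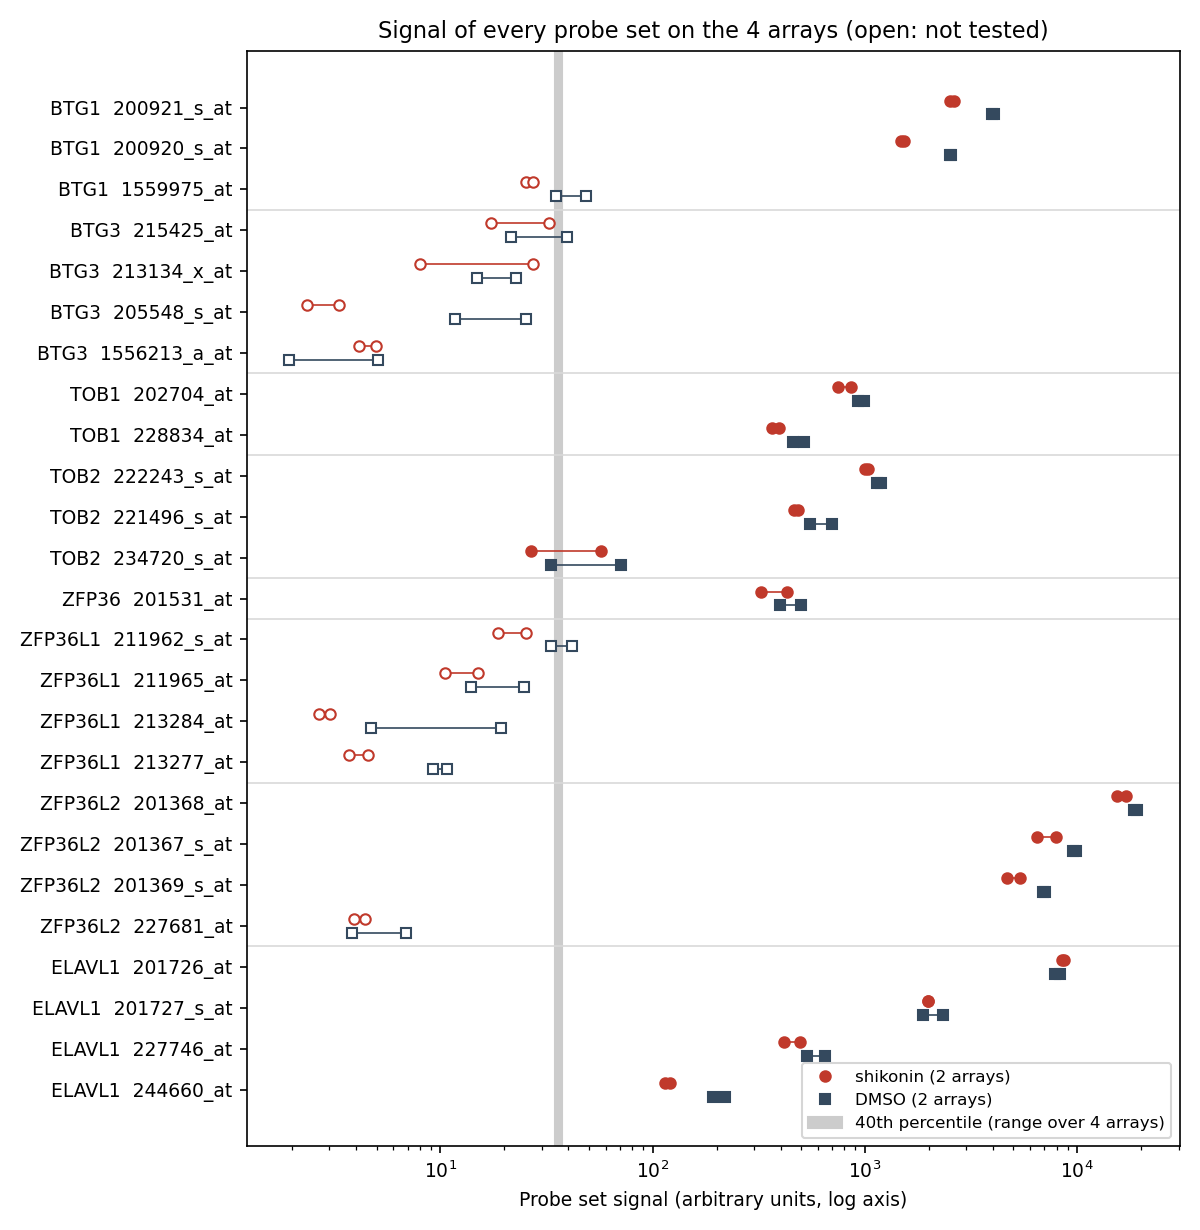
Signal of all 25 probe sets on a log axis in arbitrary units, circles for the 2 shikonin arrays and squares for the 2 DMSO arrays, joined by a line, with open symbols for the 10 probe sets not tested and a grey band at the 40th percentile of the arrays. The 2 bright BTG1 probe sets and the 3 bright ZFP36L2 probe sets have both shikonin arrays to the left of both DMSO arrays, and the BTG3 and ZFP36L1 probe sets lie at or below the band, apart from 1 DMSO value of each gene (39.6 and 41.5).

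BTG1, an antiproliferative adaptor that links CCR4-NOT to mRNAs, is known for high expression in resting cells. It had the largest change among the called genes of this group. On its brightest probe set (200921_s_at) the signal was 2621 and 2527 after shikonin, against 4053 and 3983 in DMSO. The arrays of each group lay close together and the groups were far apart. This is 1.56-fold lower (log2 change -0.64, SE 0.062, limma adjusted p = 4.66e-04). The second probe set (200920_s_at) gave 1527 and 1476 after shikonin and 2550 and 2508 in DMSO, which is 1.68-fold lower (log2 change -0.75, SE 0.070, limma adjusted p = 3.90e-04). Both calls held when any single array was left out, with log2 changes of -0.67 to -0.61 on the first and -0.77 to -0.72 on the second. The third probe set (1559975_at) was not tested: it read 25.4 and 27.3 after shikonin and 48.5 and 35.0 in DMSO, near the dim end of the arrays. Both tested BTG1 probe sets have names ending in _s_at and may cross-hybridize with other transcripts. The change of BTG1 could therefore not be tested without such probe sets.

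Among all 13550 genes, BTG1 ranked 781st from the most strongly lowered and 1345th by size of change, so many genes moved further. The genes whose 4 values, each taken from the gene's own mean, came nearest to those of BTG1 were IDI1, GPSM2, VEGFA, CMIP and TSNARE1, at Euclidean distances of 0.027 to 0.040 on the log2 scale, where the median gene lay at 0.72. Their log2 changes ran from -0.68 to -0.60. With the mean of all tested probe sets of a gene, IDI1 was at -0.36 (limma adjusted p = 0.0301), CMIP at -0.33 (0.130) and TSNARE1 at -0.30 (0.291), and IDI1 without probe sets that may cross-hybridize was at -0.080 (0.875). The genes named were chosen as the nearest of all, so their small distances and similar changes follow from the choice. This likeness rests on 4 arrays in 2 groups. IDI1, an isopentenyl diphosphate isomerase of sterol synthesis, read 3874 and 3771 after shikonin and 6018 and 5794 in DMSO, on a probe set that may also read other transcripts.

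The promoter of BTG1 is shown because BTG1 carries the clearest change and ZFP36, an immediate early gene of the same group, did not pass. Both sequences come from RefSeq's annotation of GRCh38.p14 and span 250 bases before to 50 bases after the annotated start. The BTG1 promoter lies at chr12:92145797-92146096 on the minus strand, and the ZFP36 promoter at chr19:39406597-39406896 on the plus strand. Capitals mark the letters TGACG (the core of a cAMP response element), TATAAA (a core promoter box) and GGGCGG (GC box), each on either strand.
BTG1: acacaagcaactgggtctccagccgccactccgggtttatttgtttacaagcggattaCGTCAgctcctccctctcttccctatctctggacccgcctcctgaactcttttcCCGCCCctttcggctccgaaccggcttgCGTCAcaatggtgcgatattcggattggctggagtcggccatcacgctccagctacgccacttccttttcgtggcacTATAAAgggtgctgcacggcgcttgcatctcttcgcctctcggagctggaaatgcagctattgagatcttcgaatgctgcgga
ZFP36: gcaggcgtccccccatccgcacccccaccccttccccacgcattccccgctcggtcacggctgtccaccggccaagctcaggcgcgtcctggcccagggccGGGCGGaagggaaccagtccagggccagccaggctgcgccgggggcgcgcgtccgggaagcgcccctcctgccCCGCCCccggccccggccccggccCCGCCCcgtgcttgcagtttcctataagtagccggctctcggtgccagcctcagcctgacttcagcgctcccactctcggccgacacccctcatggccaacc

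In the BTG1 window TGACG was found 2 times, beginning 192 and 110 bases before the start and both on the opposite strand, TATAAA 1 time at 33 bases before it, and GGGCGG 1 time. The ZFP36 window held GGGCGG 3 times and neither TGACG nor TATAAA. Of 35116 promoter windows of the same length, 24.6% held TGACG, 11.5% TATAAA and 45% GGGCGG. GCGNGGGCG, a site for EGR proteins, was in neither of these windows and in 9.43% of all. Of the 10 windows listed for 8 of the genes, 3 held it, those of BTG2, ZFP36L1 (at 1 of its starts) and ZC3H12A. A CArG box, the site of serum response factor, was in none of the 10 and in 1.29% of all. A full TGACGTCA was in 1 of the 10, at 1 of the 2 ZFP36L1 starts listed, and in 1.85% of all. These matches are letters in a window and not measured binding. ZFP36L2 and ELAVL1 are named only.

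TOB1 and TOB2, which bind both CCR4-NOT and the poly(A)-binding protein, had lower values after shikonin on all 5 of their tested probe sets, and none passed. TOB1 (202704_at) read 856 and 748 after shikonin, against 930 and 989 in DMSO. Its groups did not overlap, but the gap was no wider than the distance between the shikonin arrays (log2 change -0.26, 95% interval -0.49 to -0.029, limma adjusted p = 0.156). The second TOB1 probe set (228834_at) read 364 and 391 after shikonin and 459 and 517 in DMSO (log2 change -0.36, limma adjusted p = 0.116).

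TOB2 (222243_s_at) read 1029 and 1004 after shikonin, against 1187 and 1145 in DMSO, with a log2 change of -0.20 (95% interval -0.38 to -0.0070, limma adjusted p = 0.189). On 221496_s_at the TOB2 signal was 463 and 482 after shikonin and 553 and 697 in DMSO, a log2 change of -0.39 (limma adjusted p = 0.106). The DMSO arrays were uneven there, and without DMSO 1 the TOB2 change on this probe set was -0.55 (limma adjusted p = 0.0489). The third TOB2 probe set (234720_s_at) was dim and uneven within both groups, at 26.7 and 57.3 after shikonin and 33.2 and 70.9 in DMSO, and its interval of -1.45 to 0.95 covers changes in either direction. Its sign turned without shikonin 1 (0.19) or without DMSO 2 (0.20).

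BTG3, a relative of BTG1 known to be induced by p53, had 4 probe sets with signals between 1.94 and 39.6, all under the filter. The brightest (215425_at) read 17.4 and 32.6 after shikonin and 39.6 and 21.6 in DMSO, so the groups overlapped. On 205548_s_at the shikonin arrays read 3.32 and 2.35 and the DMSO arrays 25.3 and 11.7, below the 40th percentile of all 4 arrays, and no fold is given at this level.

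**Figure D2:**
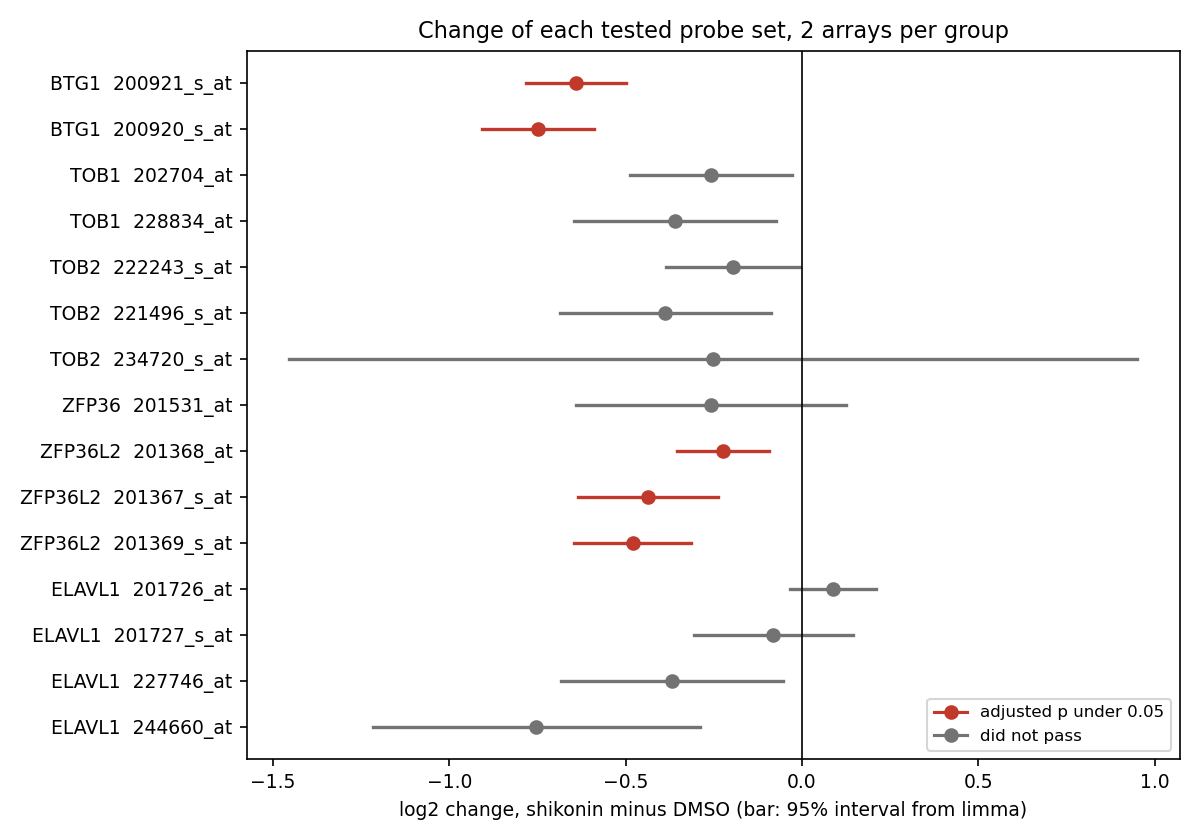
The log2 change, shikonin minus DMSO, of each of the 15 tested probe sets with its 95% interval from limma, red where the adjusted p was under 0.05 and grey elsewhere. The 5 red points are those of BTG1 (-0.64 and -0.75) and ZFP36L2 (-0.22, -0.44 and -0.48), and the only point right of 0 is the brightest ELAVL1 probe set (0.087).

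Among the zinc finger proteins, ZFP36L2, which blood stem cells of mice are known to need, was the brightest gene of the group. On 201368_at the signal was 15322 and 16916 after shikonin, against 19199 and 18438 in DMSO. The groups did not overlap, and the change was small: 1.17-fold lower (log2 change -0.22, SE 0.058, limma adjusted p = 0.0441). The call on this ZFP36L2 probe set was lost without shikonin 1 (log2 change -0.15, limma adjusted p = 0.262), without DMSO 1 (-0.20, 0.143) and without DMSO 2 (-0.25, 0.0530), and also without the filter on dim probe sets (0.138).

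The 2 other bright probe sets of ZFP36L2 changed more. Both have names ending in _s_at and may cross-hybridize with other transcripts, unlike 201368_at. On 201369_s_at the ZFP36L2 signal was 4653 and 5393 after shikonin and 6917 and 7069 in DMSO, 1.40-fold lower (log2 change -0.48, SE 0.074, limma adjusted p = 0.00472), and this call held without any single array. On 201367_s_at it was 6461 and 7980 after shikonin and 9879 and 9562 in DMSO, 1.35-fold lower (log2 change -0.44, SE 0.088, limma adjusted p = 0.0166), and the call was lost without shikonin 1 (-0.28, limma adjusted p = 0.0546) and without the filter (0.0629). On all 3 probe sets the first shikonin array was the lower. Within each array the log2 ratio of 201369_s_at over 201368_at differed by -0.26 after shikonin, without overlap of groups. An exact two-sided permutation test gave p = 0.333 for it, the smallest that 2 arrays against 2 allow. The fourth ZFP36L2 probe set (227681_at) lay between 3.84 and 6.91 on all arrays.

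ZFP36 (tristetraprolin), the founding member of the family and the best known inhibitor of TNF mRNA, had 1 probe set (201531_at). It read 427 and 323 after shikonin, against 500 and 398 in DMSO. The groups overlapped, and the arrays within each group differed more than the group means (375 ± 73.5 after shikonin and 449 ± 72.0 in DMSO, SD, n = 2 each). The log2 change was -0.26 with a 95% interval of -0.64 to 0.13 (limma adjusted p = 0.402), so a fall as large as that of BTG1 and a small rise both lie near or within what these arrays allow. In both groups the first array was the brighter.

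ZFP36L1, the third paralog, had 4 probe sets with no tested value. The brightest (211962_s_at) lay just under the filter with a mean of 29.7, and read 25.3 and 18.8 after shikonin and 41.5 and 33.3 in DMSO. On 213277_at the values were 3.70 and 4.57 after shikonin and 9.18 and 10.8 in DMSO. The shikonin arrays were lower on 3 of the 4 probe sets without overlap, which held for 17% of all probe sets under the filter, but all of the shikonin signals and all but 1 of the DMSO signals were below the 40th percentile and were not shown to exceed background.

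ELAVL1, which stabilises AU-rich mRNAs, had probe sets with changes of either sign, and none of them passed. The brightest probe set (201726_at) read 8470 and 8678 after shikonin, against 7873 and 8273 in DMSO. The log2 change of 0.087 had a 95% interval of -0.035 to 0.21 (limma adjusted p = 0.370). Under quantile normalization the change was 0.0063 (limma adjusted p = 0.952). The interval does not reach a fall of the size seen for BTG1, but it holds for this probe set and not for the gene. Another ELAVL1 probe set, 244660_at, was at -0.75. On 201727_s_at the ELAVL1 signal was 1975 on both shikonin arrays and 1876 and 2329 in DMSO, a log2 change of -0.082 (95% interval -0.31 to 0.14).

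The dimmer ELAVL1 probe sets were lower after shikonin. On 227746_at the signal was 417 and 494 after shikonin and 534 and 650 in DMSO (log2 change -0.37, limma adjusted p = 0.139). On 244660_at it was 121 and 114 after shikonin and 220 and 191 in DMSO, and the change of -0.75 missed the threshold (SE 0.20, limma adjusted p = 0.0525). This ELAVL1 probe set passed with the lowest 60% of probe sets removed (0.0398) and without probe sets ending in _x_at or _s_at (0.0484), and had adjusted p-values of 0.0974 to 0.216 when 1 array was left out. Within each array the log2 ratio of 244660_at over 201726_at differed by -0.84 after shikonin, without overlap of groups (exact two-sided permutation p = 0.333). Which ELAVL1 transcript forms these probe sets read was not analysed here. With the mean of all 4 probe sets in place of the brightest, the change of ELAVL1 turned to -0.28 (limma adjusted p = 0.0605).

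**Figure D3:**
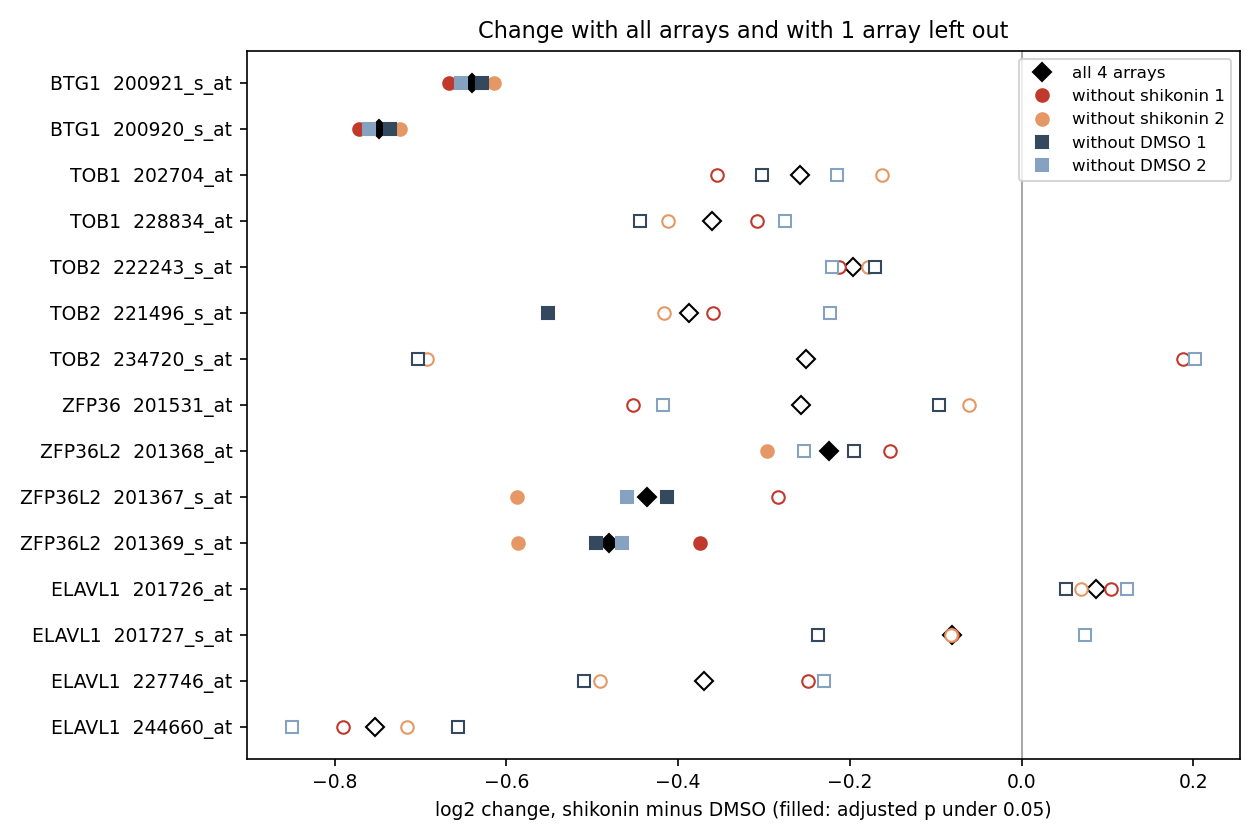
The log2 change, shikonin minus DMSO, of each tested probe set with all 4 arrays (diamonds) and with 1 array left out (circles for a shikonin array, squares for a DMSO array), filled where the adjusted p was under 0.05. The BTG1 symbols stay between -0.77 and -0.61 and are all filled, whereas those of ZFP36 spread from -0.45 to -0.061 and are all open.

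The machinery on which these regulators act was described with 7 lists of 119 genes, of which 101 were tested, each by its brightest probe set. Over the lists, 3 genes were called higher (5% of all genes tested) and 16 lower (6.68% of all), with a median log2 change of 0.046. Of the 16, 12 were in the list of target transcripts, and the 78 tested genes of the 6 other lists had 3 called higher and 4 lower, near the share of all genes. Without shikonin 2, 10 were called lower, and without DMSO 2 or without shikonin 1, 1 was called higher. Of 15 deadenylase genes, 2 were called lower (6.68% of all genes) and none higher (5% of all), with a median of -0.079, and 3 and 0 had an unadjusted p under 0.05 (14.7% and 13.3% of all). CNOT8, a catalytic subunit bound by BTG and TOB proteins, read 2168 and 1995 after shikonin and 2790 and 2477 in DMSO (log2 change -0.34, limma adjusted p = 0.0353). PAN3, of the PAN2-PAN3 deadenylase, read 2183 and 1969 after shikonin and 2524 and 2590 in DMSO (log2 change -0.30, limma adjusted p = 0.0385). CNOT8 lost the call without DMSO 1 or shikonin 2 (limma adjusted p = 0.155 and 0.157), and PAN3 without DMSO 1, DMSO 2 or shikonin 2 (0.0827, 0.115 and 0.194).

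Of 17 decapping and 5'-to-3' decay genes, 2 were called higher (5% of all genes) and 1 lower (6.68% of all), with a median of 0.16. With gene means the median was 0.10, and limma called none of the 17. Under quantile normalization it was 0.085, where that of the exosome and SKI genes was 0.093. An unadjusted limma p was under 0.05 for 6 of the 17 in the higher direction (13.3% of all genes) and for 3 in the lower (14.7%). The helicase DDX6 read 1947 and 1725 after shikonin and 1305 and 1374 in DMSO (log2 change 0.45, limma adjusted p = 0.0132), and the decapping enzyme DCP2 read 3053 and 2901 after shikonin and 2441 and 2356 in DMSO (0.31, adjusted p = 0.0221). DCP1A, the activator of DCP2, read 1420 and 1421 after shikonin and 1881 and 1789 in DMSO (-0.37, adjusted p = 0.0172). The other probe sets of DDX6 lay at -0.40 to -0.092 and those of DCP2 at -0.15 to 0.16, and none passed, so these directions rest on 1 probe set each. With the mean of all tested probe sets, DDX6 was at -0.014 (adjusted p = 0.960) and DCP2 at 0.10 (0.666), and DCP1A at -0.25 (0.0509). DDX6 lost the call without shikonin 1 (0.0733). DCP2 lost it without DMSO 2, shikonin 1 or shikonin 2 (0.0781, 0.116 and 0.0530), and DCP1A without DMSO 1, shikonin 1 or shikonin 2 (0.0781, 0.0621 and 0.0638).

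None of 14 genes of the exosome and its SKI cofactor, 5 of the poly(A)-binding proteins and their partners, or 11 kinases, phosphatase subunits and 14-3-3 proteins known to act on ZFP36 proteins was called by limma in either direction. Without adjustment, 2, 0 and 2 of them had a p under 0.05 in the higher direction (13.3% of all genes) and 0, 0 and 1 in the lower (14.7%). MAPKAPK2, the kinase that inactivates ZFP36, had a log2 change of -0.23 (limma adjusted p = 0.0734) and YWHAQ, a 14-3-3 protein, of 0.16 (0.105). With the lowest 60% of probe sets removed, MAPKAPK2 passed (limma adjusted p = 0.0454), and so did the exosome subunit EXOSC3 (0.0463). EXOSC3 and EXOSC1, another exosome subunit, were at 0.24 and 0.18 (0.0735 and 0.163), and their signs turned without probe sets that may cross-hybridize (-0.069 and -0.56), that of EXOSC1 also with gene means (-0.19). PAIP1 was at -0.092 and PABPC1, the main cytoplasmic poly(A)-binding protein, at 0.042 (0.501 and 0.720). Both were read by probe sets ending in _x_at, which may cross-hybridize. Without probe sets ending in _x_at or _s_at, 2 of the poly(A)-binding proteins and partners were left, and limma called neither. All of these counts rest on the brightest probe set of each gene, and some other probe sets were called by limma. For PAIP1, 3 of the 4 others were called lower (range of the 4 -0.305 to 0.022). For YWHAQ, 1 of 2 others was called higher, and for YWHAZ, another 14-3-3 protein, 1 of 4 others was called lower. The sign of PABPC1 turned under quantile normalization (-0.044) and without DMSO 1 (-0.037).

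Of 16 other proteins that bind 3' UTRs, 1 was called higher (5% of all genes) and 1 lower (6.68% of all). These called counts are near the share of all genes. The unadjusted limma p was under 0.05 for 3 of the 16 in the higher direction (13.3% of all genes) and for 5 in the lower (14.7%). ZC3H12D, a relative of regnase-1, read 350 and 349 after shikonin and 224 and 218 in DMSO (log2 change 0.64, limma adjusted p = 0.0274). IGF2BP3, a stabilising mRNA-binding protein, read 2285 and 2262 after shikonin and 2797 and 2733 in DMSO (-0.28, adjusted p = 0.0294), and 2 of its 3 other probe sets were called lower too. Whichever array was left out, neither call held, with adjusted p-values of 0.0660 to 0.0995 for ZC3H12D and 0.0693 to 0.116 for IGF2BP3. Without the filter ZC3H12D and IGF2BP3 had adjusted p-values of 0.0591 and 0.0521, and CNOT8 and PAN3 of 0.0792 and 0.0763.

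Of 23 transcripts known as AU-rich or regnase-1 targets, 12 were called lower (6.68% of all genes) and none higher (5% of all). Their median log2 change was -0.40, and 15 and 1 had an unadjusted limma p under 0.05 (14.7% and 13.3% of all). Without probe sets ending in _x_at or _s_at, 12 of these genes were tested, 4 were called lower and the median was -0.24. This list was written with earlier results for several of its genes known, and many of its members are also immediate early or inflammatory genes, so its count is no independent evidence. PLAUR, the urokinase receptor, read 1257 and 1215 after shikonin, against 2757 and 2634 in DMSO (log2 change -1.12, limma adjusted p = 4.79e-05). MCL1, a survival protein of the BCL2 family, read 4568 and 4119 after shikonin, against 8226 and 8643 in DMSO (-0.96, adjusted p = 7.33e-05). The groups were well apart for both.

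TNF, the inflammatory cytokine whose mRNA is the best known ZFP36 target, read 197 and 186 after shikonin, against 601 and 640 in DMSO (log2 change -1.65, limma adjusted p = 1.72e-04). VEGFA, an angiogenic growth factor, read 4415 and 4203 after shikonin, against 6715 and 6806 in DMSO (-0.65, adjusted p = 2.83e-04). It was among the genes chosen above as nearest to BTG1. These 4 calls held without any single array. The other probe sets of PLAUR ran from -1.26 to 0.34, with 1 of 2 called lower. With PLAUR represented by 214866_at, which is left when probe sets that may cross-hybridize are removed, its change turned to 0.34 (limma adjusted p = 0.234), and MCL1 without them was at -0.35 (0.235). TNF and VEGFA had no tested probe set left in that setting, so their changes were not tested in this way. The levels of these transcripts and of the decay regulators were measured at 1 time only, and transcript half-lives were not measured.

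**Figure D4:**
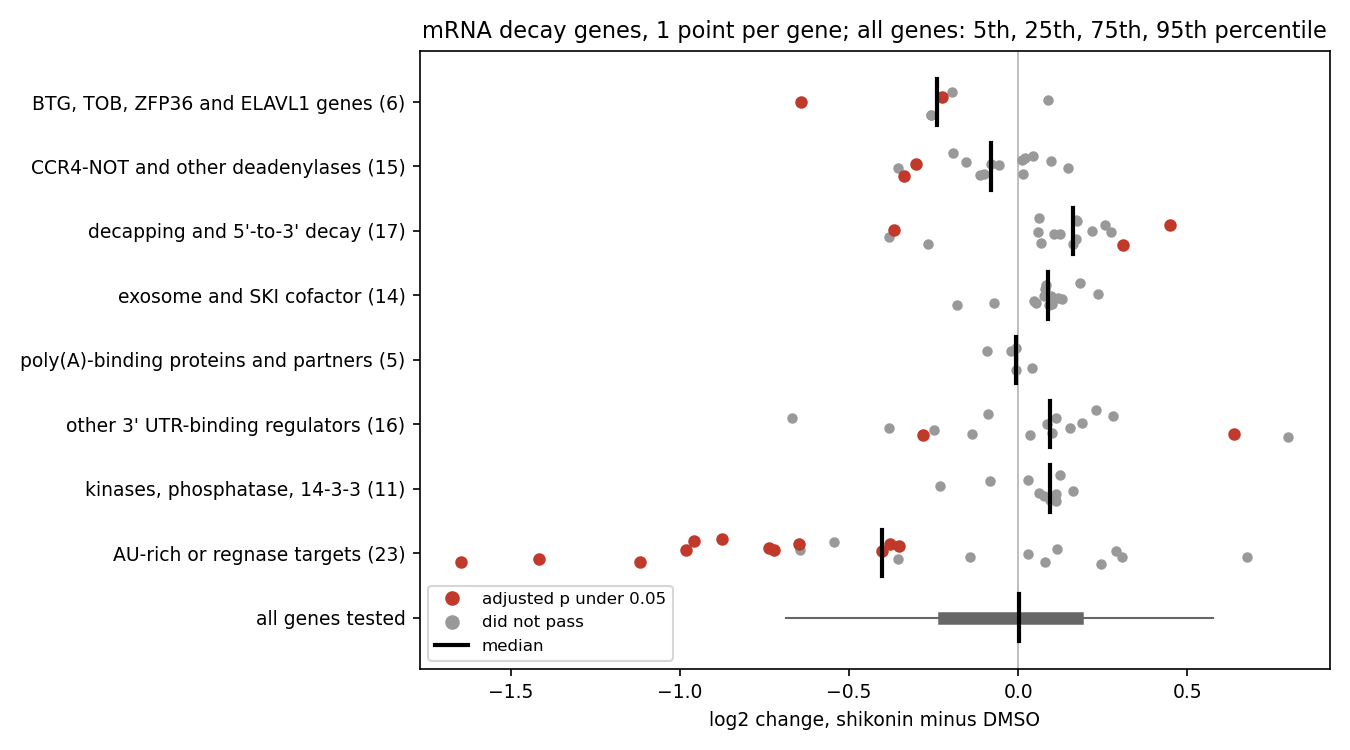
The log2 change, shikonin minus DMSO, of each tested gene by its brightest probe set, in rows for the BTG, TOB, ZFP36 and ELAVL1 genes and the 7 lists, red where the adjusted p was under 0.05, with a black bar at each median and the number of genes in parentheses. The bottom row gives the 25th to 75th percentile (thick, -0.22 to 0.17) and the 5th to 95th (thin, -0.69 to 0.58) of all genes tested. The AU-rich or regnase targets have the lowest median (-0.40) and the decapping genes the highest (0.16).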

How the data were processed

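Biotin-labelled RNA of U937 cells was hybridized to human U133 Plus 2.0 arrays, per the labels' protocols. The authors deposited 1 linear intensity per probe set and array, and their summarising software is not stated in the sources used here. The number of arrays limits the precision, and no detection calls were used. Probe sets were named through the platform annotation: 41097 had 1 gene symbol, 1801 several and 11777 none. By gene identifier 41043 matched RefSeq's GRCh38.p14 gene table, and 0 symbols changed.

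Signals were converted to log2(signal + 9.94), the pseudocount being the 20th percentile of all values, which understates changes of dim genes. Control probe sets and the 40% with the lowest mean signal were removed, which left 32746. Shikonin was tested against DMSO with limma 3.58.1 in R 4.3.3 (lmFit, eBayes with a variance trend, two-sided, 2 residual and 7.11 prior degrees of freedom), Benjamini-Hochberg adjusted over the 32746 and called under 0.05. The procedure was tested on simulated data. Genes and lists were chosen with earlier results of these data known. Named were all members, up to 4 called genes per list with the smallest p (2 where none was called), and the 5 genes nearest to the most changed called member. ZC3H12A and BTG2 were not analysed. Alternatives covered the pseudocount, the filter, normalization, the variance prior, the replicate number, cross-hybridizing probe sets, the summary per gene and leaving out each array.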

Additional observations from a re-analysis of the deposited data

How the results depend on the processing

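With all 4 arrays, 2 of the BTG, TOB, ZFP36 and ELAVL1 genes were called lower and 0 higher, and 16 and 3 genes of the 7 lists. With a single variance prior in place of the trend, limma called 0 in each of these counts and 0 genes in all (smallest adjusted p 0.0829, against 2406 genes with an unadjusted p under 0.05), and 1 of the 6 genes, 20 list genes downward and 4 upward had an unadjusted p under 0.05, of which 1, 20 and 3 had it with the trend too. In that fit BTG1 had an adjusted p of 0.152 with its change as before. Without the filter 1 of these genes was called lower, since ZFP36L2 lost the call (0.138). Without probe sets ending in _x_at or _s_at, which takes BTG1 out altogether, 1 was called lower and 6 of 72 list genes (662 of 10821 genes in all). With the lowest 60% removed 6 list genes were called higher (876 of 10065 genes in all), and with gene means 1 (575 of 13550). Leaving out 1 array gave 1 to 2 of these genes called lower, 10 to 14 list genes lower and 1 to 2 higher. Whether the replicate numbers pair the samples is not known. The correlation of same-numbered deviations was 0.018, but with 2 arrays per group it cannot exclude a shared culture or batch. A fit with the replicate block called 2 of these genes lower, 21 list genes lower and 12 higher. It also called more of all 13550 genes, 1341 lower and 1249 higher, against 905 and 678 without the block. TOB2 221496_s_at (0.0461), ELAVL1 244660_at (0.0311), MAPKAPK2 (0.0273), YWHAQ (0.0156) and EXOSC3 (0.0252) passed in the fit with the block. Among the BTG, TOB, ZFP36 and ELAVL1 values, signs turned only for ones that did not pass: ELAVL1 with gene means (-0.28), ELAVL1 201727_s_at without DMSO 2 (0.074; range without 1 array -0.24 to 0.074) and TOB2 234720_s_at without DMSO 2 (0.20) or shikonin 1 (0.19; range -0.70 to 0.20). Among 177 repeats of the 15 probe set or gene values, 157 kept the direction and the side of the threshold, 11 lost a call, 5 gained one and 4 turned sign. The causes were not tested.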
